A study of Homo sapiens with 9 samples.

Results

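T-lineage transcripts in MEC1 cells comprised 6 genes of the count table, chosen by symbol from the 59050 symbols measured: the T-cell receptor constant genes TRAC, TRBC1 and TRBC2, the kinase gene LCK, the surface receptor gene CD7 and the adaptor gene LAT. MEC1 is an established human B-cell line derived from a patient with chronic lymphocytic leukemia (CLL). SMART-Seq cDNA of 9 samples was sequenced: 3 samples from conventional two-dimensional suspension culture (2D), 3 from cells bioprinted in a CELLINK Bioink hydrogel and kept in 3D for 7 days (3D_7d), and 3 kept in 3D for 14 days (3D_14d). All 3 groups were the same cell line without a drug treatment named in the labels, so that differences between samples reflect 1 line and not CLL donors. The sample titles also carry the letters PGK, which the sources used here do not explain, and whether the cells were a derivative of MEC1 is not stated. RNA of the scaffold samples was taken up in TRIzol before the column kit, and RNA of the 2D samples was purified with the kit alone, so that culture and extraction cannot be told apart in the comparisons with 2D. The labels give no culture day for the 2D samples, so time in culture cannot be told apart in these comparisons either. The members were selected because reads of T-lineage genes were seen in these libraries. Their presence is therefore described without a test.

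The T-cell receptor is a pair of chains, alpha with beta or gamma with delta. Each chain gene is assembled in developing T cells from variable (V), joining (J) and, for beta and delta, diversity (D) segments, which are then spliced to a constant (C) gene. The chains reach the cell surface together with the CD3 proteins. LCK phosphorylates the CD3 and zeta chains, ZAP70 binds them, and LAT carries the signal onward, while CD7 is a glycoprotein of T and NK cells. B cells use immunoglobulin with CD79A and CD79B instead, with LYN, BLK, SYK and BTK as kinases.

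The genes TRBC1 and TRBC2 are close copies of one another, and reads shared between them could be assigned to either or to neither. Of the 661 windows of 100 bases, the read length, in the spliced TRBC1 sequence, 74 (11.2%) also occurred in TRBC2.

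The joining segments with the most reads in the alpha and beta loci are shown here, because their reads are compared with those of the constant genes below. TRBJ2-1, which was not called against 2D, is shown with them. Capitals mark the motif TTNGGNNNNGG, searched on both strands of each segment. It can hold codons of the conserved phenylalanine and glycines of a joining segment. The reading frame was not checked, and TTN also covers leucine codons, so a hit need not hold the phenylalanine. The motif was found on the coding strand of 68 of the 74 TRA and TRB joining segments (91.9%) and on the other strand of 0. These segments are 46 to 69 bases long.
TRAJ12 (chr14:22531939-22531998, plus strand): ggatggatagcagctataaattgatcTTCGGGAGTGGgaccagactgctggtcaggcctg
TRAJ10 (chr14:22533497-22533560, plus strand): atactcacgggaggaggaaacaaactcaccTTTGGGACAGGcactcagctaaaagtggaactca
TRBJ2-3 (chr7:142796847-142796895, plus strand): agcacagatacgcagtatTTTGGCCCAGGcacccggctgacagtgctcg
TRBJ2-2P (chr7:142796697-142796742, plus strand): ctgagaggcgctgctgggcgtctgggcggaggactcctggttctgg
TRBJ2-1 (chr7:142796365-142796414, plus strand): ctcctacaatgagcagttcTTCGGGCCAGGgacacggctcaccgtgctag
These letters do not occur in TRBJ2-2P. All coordinates are those of GRCh38.

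Each library held 54662799 to 85968686 reads counted in genes. Levels are given as CPM, the count divided by the TMM-scaled library size and expressed per 1000000 reads, and levels of different genes are compared as RPKM, the CPM per 1000 bases of exon. Differences were tested with edgeR's quasi-likelihood test on 13463 retained genes, those above 1 CPM in 3 or more samples, and a gene was called at a Benjamini-Hochberg adjusted p of at most 0.05. Of the 6 members, 5 were retained. Of the B-cell genes examined, 14 of 14 were retained, with a summed CPM of 5120 to 7380. The 3D_14d samples differed most among themselves, since the chi-square of counts per gene was 155 to 305 between their pairs and 22.5 to 81.9 between pairs of the other groups.

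In 2D, TRAC, encoding the constant region of the receptor alpha chain, had a mean of 339 RPKM ± 22.9 (SD, n = 3), compared with 403 RPKM ± 43.6 for CD79A, which encodes a signalling chain of the B-cell receptor. TRBC2 had 159 RPKM ± 18.7 and LCK 121 RPKM ± 5.34, whereas TRBC1 had 21.4 RPKM ± 2.74 and CD7 1.38 RPKM ± 0.0558. The order TRAC, TRBC2, LCK, TRBC1, CD7 and LAT held in each of the 9 samples. Over all samples, 99.4% of the retained genes had a lower mean RPKM than TRAC, 98.2% than TRBC2, 95.1% than LCK, 82.6% than TRBC1 and 11.7% than CD7. The retained members thus ran from rank 83 of 13463 genes by mean RPKM for TRAC (rank 234 by mean CPM) to rank 11893 for CD7, near the filter.

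**Figure D1:**
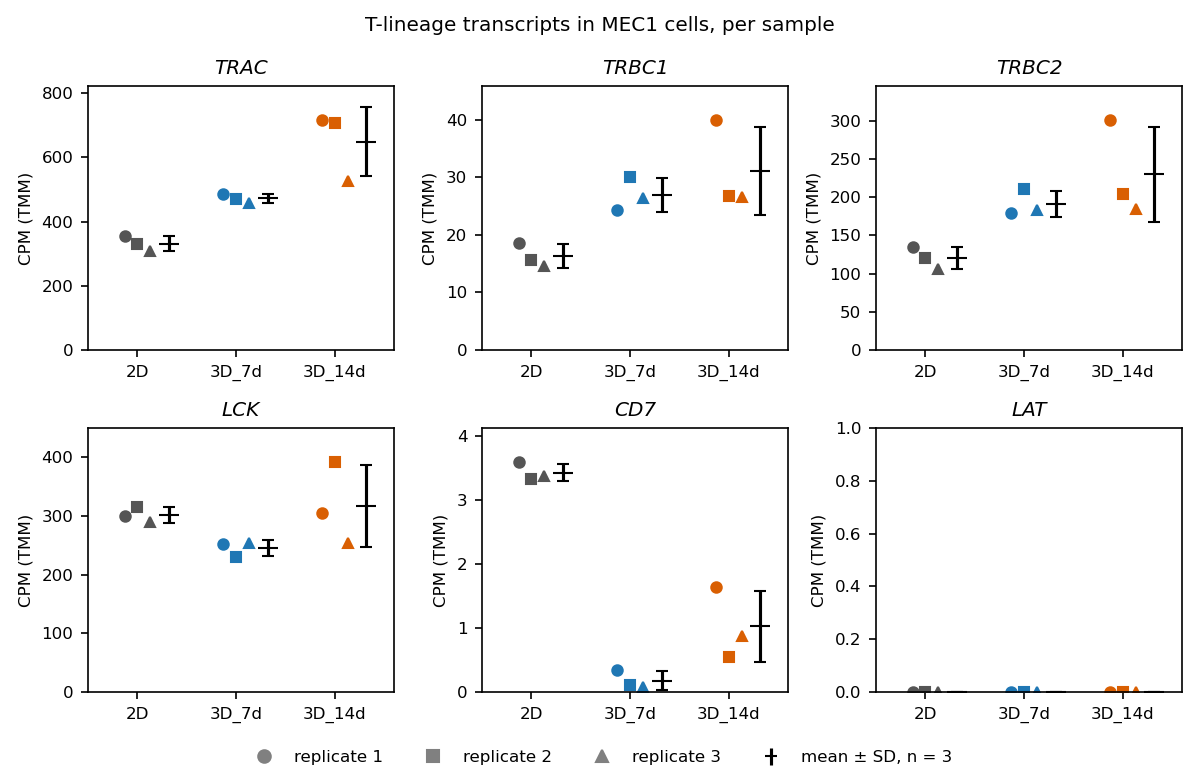
Level of each member in every sample, in CPM on linear axes that start at 0 and differ between panels. Points are single samples, with a marker per replicate, and bars give the mean ± SD of 3 samples. TRAC, TRBC1 and TRBC2 lie higher in every 3D sample than in any 2D sample, CD7 lies lower, LCK spans 254 to 391 CPM in 3D_14d, and LAT has no count.

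TRAC, on chromosome 14 (chr14:22547506-22552156, plus strand), was higher in 3D and higher at day 14 than at day 7. Its CPM was 355, 331 and 310.0 in the 2D samples, 487, 471 and 459 in 3D_7d, and 715, 706 and 526 in 3D_14d. The 3 groups did not overlap, and sample 3 of 3D_14d was closer to the 3D_7d samples than to the other two of its group. Such separation was common, since the CPM of 64.6% of the retained genes did not overlap between 3D_7d and 2D, 49.7% between 3D_14d and 2D, and 39.3% between the time points. TRAC rose 1.42-fold in the comparison 3D_7d_vs_2D (log2 fold change 0.51, SE 0.147, adjusted p = 0.0138) and 1.96-fold in 3D_14d_vs_2D (0.97, SE 0.148, adjusted p = 0.000383). Between the time points it rose 1.37-fold (0.46, SE 0.146, adjusted p = 0.0339). Of all tested genes, 43.4% were called in 3D_7d_vs_2D (22.2% as higher and 21.2% as lower), 36.2% in 3D_14d_vs_2D (19.0% and 17.2%) and 28.1% in 3D_14d_vs_3D_7d (14.5% and 13.6%), so that a call was common among genes in general. The day 7 call was lost without 2D replicate 2 or 3 or without 3D_7d replicate 2 or 3 (log2 fold change 0.42 to 0.48, adjusted p = 0.0531 to 0.0849). The call between time points was lost without 2D replicate 2, any 1 of the 3D_7d replicates or 3D_14d replicate 2 (0.39 to 0.48, adjusted p = 0.057 to 0.0973). The 3D_14d_vs_2D call held in each of the 17 alternatives run.

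TRBC2, one of the 2 constant genes of the beta chain (chr7:142801041-142802748, plus strand), was measured at 135, 121 and 106 CPM in 2D, 179, 211 and 183 CPM in 3D_7d, and 300.4, 204 and 185 CPM in 3D_14d. All 3D samples were above all 2D samples, while the time points overlapped, with replicate 1 of 3D_14d far above the other 3D samples. It rose 1.58-fold at day 7 (log2 fold change 0.66, SE 0.184, adjusted p = 0.0112) and 1.91-fold at day 14 (0.93, SE 0.184, adjusted p = 0.00209). The time points gave a log2 fold change of 0.27 (95% confidence interval -0.13 to 0.66, adjusted p = 0.294).

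TRBC1, the other beta constant gene (chr7:142791694-142793368, plus strand), had 18.6, 15.6 and 14.6 CPM in 2D, 24.4, 30.1 and 26.4 CPM in 3D_7d, and 39.9, 26.8 and 26.6 CPM in 3D_14d. Again every 3D sample was above every 2D sample and the time points overlapped, with replicate 1 of 3D_14d highest. TRBC1 rose 1.66-fold at day 7 (log2 fold change 0.73, SE 0.194, adjusted p = 0.00905) and 1.91-fold at day 14 (0.94, SE 0.194, adjusted p = 0.00278), with 0.20 between time points (interval -0.21 to 0.62, adjusted p = 0.451). Without 3D_14d replicate 1, the highest sample, the last value was -0.000375. The day 7 calls of TRBC1 and TRBC2 were both lost without 2D replicate 2, 2D replicate 3 or 3D_7d replicate 2, with log2 fold changes of 0.61 to 0.67 for TRBC1 (adjusted p = 0.0507 to 0.0594) and 0.54 to 0.63 for TRBC2 (adjusted p = 0.052 to 0.0758).

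TRBC1 held a nearly fixed part of the beta constant reads. Its share of the TRBC1 and TRBC2 counts was between 11.5% and 12.6% in all 9 samples, and the ranges of the 3 conditions overlapped. TRBC1 is preceded in the genome by the 6 TRBJ1 segments and TRBC2 by the 8 TRBJ2 segments. The TRBJ1 segments together had 5 counts over all 9 samples and the TRBJ2 segments 15155, while TRBC1 had 13203 counts. Whether reads counted for TRBC1 came from TRBC2 transcripts was not tested.

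LCK, the Src-family kinase gene on chromosome 1 (chr1:32251239-32286165, plus strand), had 300.5, 316 and 290 CPM in 2D, 252, 230 and 255 CPM in 3D_7d, and 306, 391 and 254 CPM in 3D_14d. The 3D_7d samples were all below the 2D samples, and the 3D_14d samples overlapped both groups. No comparison passed the threshold. The log2 fold change was -0.30 at day 7 (95% confidence interval -0.64 to 0.04, adjusted p = 0.145), 0.07 at day 14 (-0.27 to 0.41, adjusted p = 0.761) and 0.37 between time points (0.03 to 0.71, adjusted p = 0.0995). Scaling by total counts alone gave -0.46 at day 7 (adjusted p = 0.0234) and a day 14 value of -0.14, and a fit of only the 6 samples of the day 7 comparison gave -0.32 (adjusted p = 0.00829). Without 3D_14d replicate 2, the day 14 value was -0.11, and without 3D_14d replicate 3 the time points differed by 0.51 (adjusted p = 0.0219).

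CD7, on the minus strand of chromosome 17 (chr17:82314868-82317608), was the retained member with the largest differences and the fewest reads. It had 3.59, 3.33 and 3.37 CPM in 2D (218, 309 and 257 counts), 0.345, 0.109 and 0.0758 CPM in 3D_7d (20, 6 and 4 counts), and 1.64, 0.550 and 0.879 CPM in 3D_14d (89, 29 and 49 counts). The 3 groups were separate, with 3D_7d lowest. CD7 fell 19.0-fold at day 7 (log2 fold change -4.25, SE 0.595, adjusted p = 0.000158) and 3.34-fold at day 14 (-1.74, SE 0.513, adjusted p = 0.0188), and was 5.69-fold higher at day 14 than at day 7 (2.51, SE 0.578, adjusted p = 0.00759). CD7 passed the filter through the 2D samples, in which it was high, and only 1 of the 6 samples in 3D was above 1 CPM, so that its place among the retained genes is no support for the difference. Without a filter on expression the day 7 value was -4.26 (adjusted p = 3e-12). That fit used the same reads, so its smaller adjusted p is no further support. The day 14 call against 2D was lost without 2D replicate 1 (-1.72, adjusted p = 0.0518), 3D_14d replicate 2 (-1.44, adjusted p = 0.0553) or 3D_14d replicate 3 (-1.64, adjusted p = 0.0586). In bulk RNA, fewer cells with a transcript and less of it per cell cannot be told apart.

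**Figure D2:**
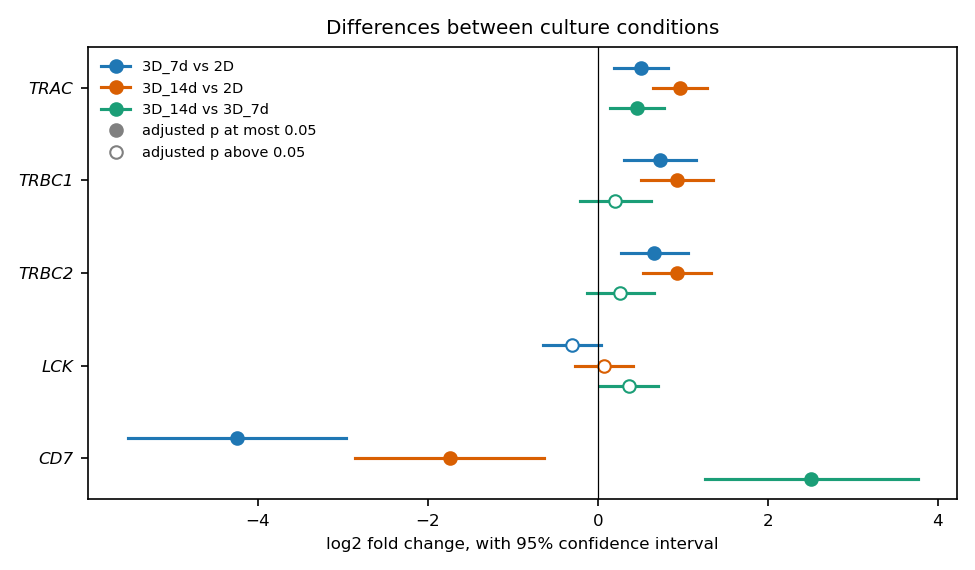
Log2 fold change of the 5 retained members in the 3 comparisons, with 95% confidence intervals from the quasi-likelihood fit. Filled points have an adjusted p of at most 0.05. The constant genes lie near 0.5 to 1 against 2D, the LCK points are open, and the CD7 points run from -4.25 to 2.51.

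LAT, the adaptor gene on chromosome 16 (chr16:28984826-28990783, plus strand), had 0 counts in all 9 samples and was not tested. A count of 0 allows up to 3 counts, or 0.0323 to 0.0569 CPM by sample, for reads that could be assigned to it, and this limit covers counting error only. However, 1852 of the 1870 exonic bases of LAT (99.0%) are shared with other genes of the annotation, and 18 are its own. AC109460.3, a gene annotated across SPNS1 and LAT on the same strand, shares 1849 of these bases and had 4 to 20 counts per sample. SPNS1 shares 96.3% of its exonic bases and had 0 to 2 counts. The label of an expressed transcript was therefore not borne out for LAT in these counts, and the 0 cannot be read as absence of its RNA. The other members share no exonic base with another gene.

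Reads of the receptor loci were concentrated on constant genes and joining segments, while V segments had very few. Of 226 V, D, J and C segments, 19 were retained. In the alpha locus, TRAC had 259413 counts over the 9 samples and the 60 joining segments 11275, whereas the 54 variable segments had 285, between 7 and 83 per sample, and none was retained. In the beta locus, the constant genes had 109623 counts, the 14 joining segments 15160, the 67 variable segments 272 and the diversity segment 3. The TRAV counts were 0.0296% to 0.270% of the TRAC counts in a sample, and the TRBV counts 0.0752% to 0.484% of the TRBC counts. The joining segments of the alpha locus had 4.73% to 5.65% of the TRAC counts in 2D, 3.95% to 4.30% in 3D_7d and 3.26% to 4.87% in 3D_14d. Those of the beta locus had 12.1% to 13.6% of the TRBC counts in 2D, 13.9% to 14.6% in 3D_7d and 13.9% to 15.5% in 3D_14d. These ratios describe reads as counted and are not corrected for segment length.

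**Figure D3:**
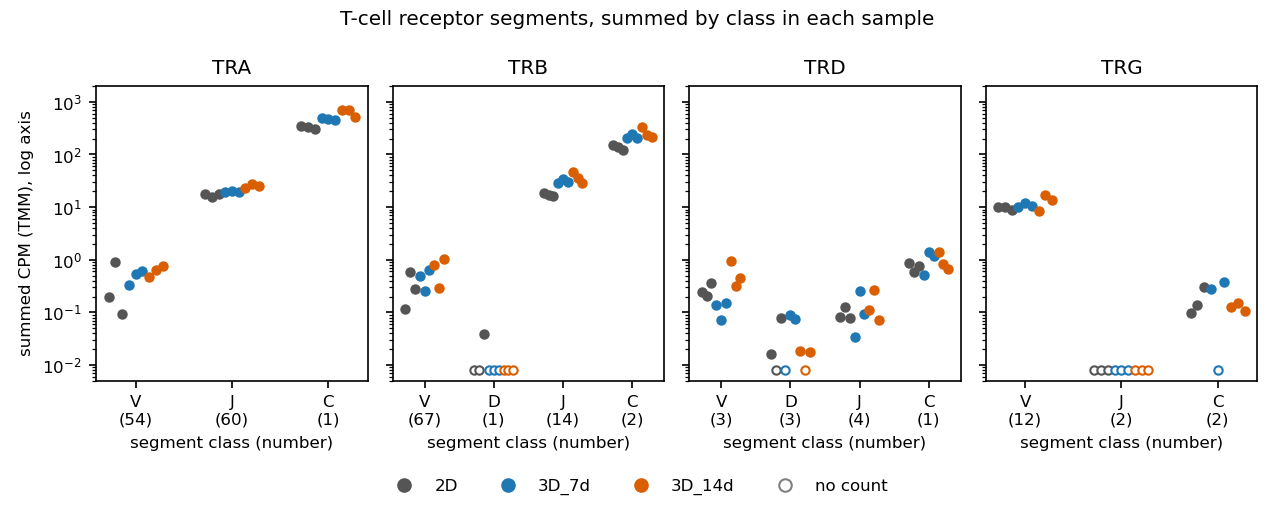
Summed CPM of variable (V), diversity (D), joining (J) and constant (C) segments of the 4 T-cell receptor loci, 1 point per sample on a log axis, with the number of segments in brackets. Open points at the bottom mark samples without a count. In TRA and TRB the constant and joining classes lie above 10 CPM in every sample and the variable classes at or below about 1 CPM.

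The gamma and delta loci looked different. The delta constant gene TRDC had 491 counts in all, TRDV3 164 and TRDJ1 65, and TRDC was not called in any comparison (log2 fold changes of 0.51 and 0.42 against 2D, adjusted p = 0.408 and 0.52). TRDC shares 38.8% of its exonic bases with another gene. In the gamma locus 4 of 12 variable segments were retained, with 6070 counts for the class, led by TRGV3 (2196), TRGV5P (1419) and TRGV5 (1253), whereas the 2 constant genes had 99 counts and the joining segments 0. TRGV3, TRGV5P and TRGV5 were not called, with log2 fold changes of 0.10 to 0.40 at day 7 and 0.16 to 0.51 at day 14. These variable segments resemble each other, so the split of reads between them is uncertain.

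Of the 11 retained joining segments, all of the alpha or beta locus, 4 rose and 0 fell in 3D_7d_vs_2D, 5 rose and 0 fell in 3D_14d_vs_2D, and 1 rose between the time points, against 22.2%, 19.0% and 14.5% of all tested genes called as higher. The other 7, 6 and 10 segments were not called in these comparisons. TRBJ2-3 had 5.59, 5.06 and 5.27 CPM in 2D, 11.6, 14.9 and 12.6 CPM in 3D_7d, and 21.0, 14.3 and 12.0 CPM in 3D_14d. Every 3D sample was thus above every 2D sample, as for TRBC2. TRBJ2-3 rose by 1.30 on the log2 scale at day 7 (SE 0.225, adjusted p = 0.000658) and by 1.57 at day 14 (SE 0.226, adjusted p = 0.000277). TRBJ2-2P, the segment without the motif, rose by 1.08 (adjusted p = 0.00326) and 1.42 (adjusted p = 0.000821), and TRBJ2-4 by 1.23 (adjusted p = 0.0075) and 1.40 (adjusted p = 0.0045).

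TRBJ2-1, which lies farthest upstream of these segments, had 2.34, 2.55 and 2.53 CPM in 2D, 1.95, 2.13 and 1.63 CPM in 3D_7d, and 1.98, 2.01 and 1.44 CPM in 3D_14d. Its log2 fold changes of -0.38 (SE 0.312, adjusted p = 0.35) and -0.45 (SE 0.313, adjusted p = 0.277) did not pass the threshold, and the difference from its neighbours was not tested. In the alpha locus, TRAJ12 had 7.12, 6.41 and 6.34 CPM in 2D, 8.63, 8.67 and 8.91 CPM in 3D_7d, and 13.2, 14.6 and 13.8 CPM in 3D_14d. The 3 groups were separate, in the order seen for TRAC. TRAJ12 rose by 1.06 at day 14 (SE 0.176, adjusted p = 0.000656) and by 0.66 between time points (adjusted p = 0.0142), while its day 7 value of 0.40 was not called (adjusted p = 0.0815). TRAJ10 rose by 0.97 at day 7 (adjusted p = 0.0157) and by 1.25 at day 14 (adjusted p = 0.0049). Joining segments and constant genes can be parts of 1 transcript, so that their changes are not independent measurements.

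**Figure D4:**
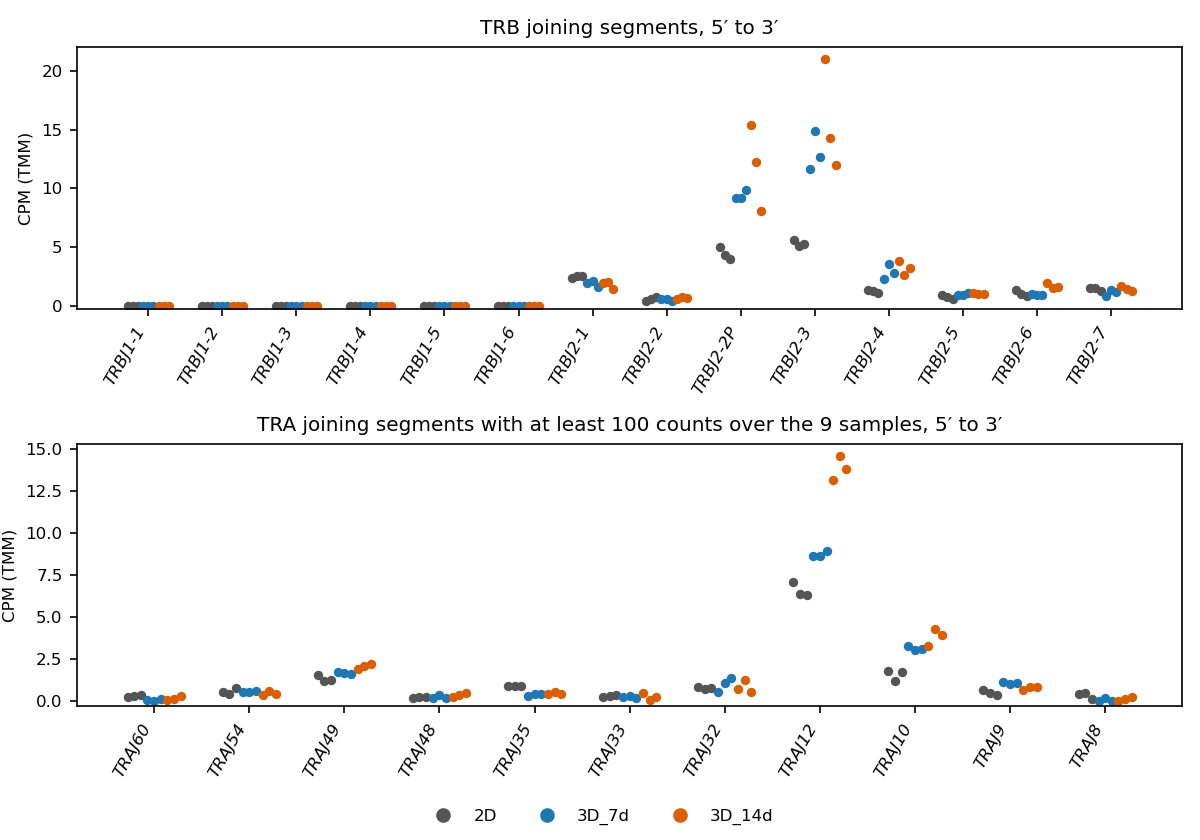
CPM of joining segments in every sample on linear axes, in the order of the locus, for all 14 TRB segments (top) and for the TRA segments with at least 100 counts over the 9 samples (bottom). Colours mark the groups. The TRBJ1 segments lie at or near 0, and TRBJ2-3, TRBJ2-2P and TRAJ12 show the 3D samples above the 2D samples.

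Genes of the CD3 complex, without which the receptor does not reach the surface, were nearly silent. CD3D, CD3E, CD3G and CD247 summed to 1.06 to 1.40 CPM in 2D, 0.242 to 0.546 CPM in 3D_7d and 0.277 to 1.35 CPM in 3D_14d, 14 to 130 counts per sample, and none was retained. CD3D and CD3G had at most 3 counts in any sample. The T-cell markers CD2, CD4, CD5, CD8A and CD8B and the T-cell signalling gene THEMIS were not retained either, CD8B with at most 3 counts. RAG1 and RAG2, which encode the recombinase that joins the segments, and DNTT, which encodes the transferase that adds bases at the joints, were below the filter, with 0.226 to 1.35 CPM for the sum of the 3. Other genes of the T-lineage lists were retained, among them the surface genes CD6 (0.931 CPM ± 0.145 in 2D, SD, n = 3) and CD28 (1.03 ± 0.738) near the filter and TCF7, a transcription factor gene, well above it (49.4 ± 6.43).

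The 4 T-lineage lists, with the members, held 70 genes in all: the receptor and CD3 complex (11), coreceptors and surface proteins (17), proximal signalling (24) and transcription factors (18). The lists were not limited to genes particular to T cells, since CD27 is also a receptor of memory B cells and PTPN6 acts on both antigen receptors. Of the 49 retained, 12 rose and 6 fell at day 7 (36.7% called, against 43.4% of all genes), 15 rose and 6 fell at day 14 (42.9% against 36.2%), and 9 rose and 3 fell between time points (24.5% against 28.1%). Without the members, 9 of 44 rose and 5 fell at day 7, and 12 rose and 5 fell at day 14. The median log2 fold change of the 49 genes was -0.03 at day 7 and 0.23 at day 14, beside -0.0039 and 0.0228 for all genes tested. With total counts as the only scaling, 10 rose and 12 fell at day 7 and 10 rose and 8 fell at day 14, while the median of all genes moved to -0.16 and -0.18. The number called at day 7 was 10 to 11 without 2D replicate 2 or 3 and 30 in a fit of the 6 samples alone, and at day 14 it was 11 to 12 without 2D replicate 1 or 2.

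**Figure D5:**
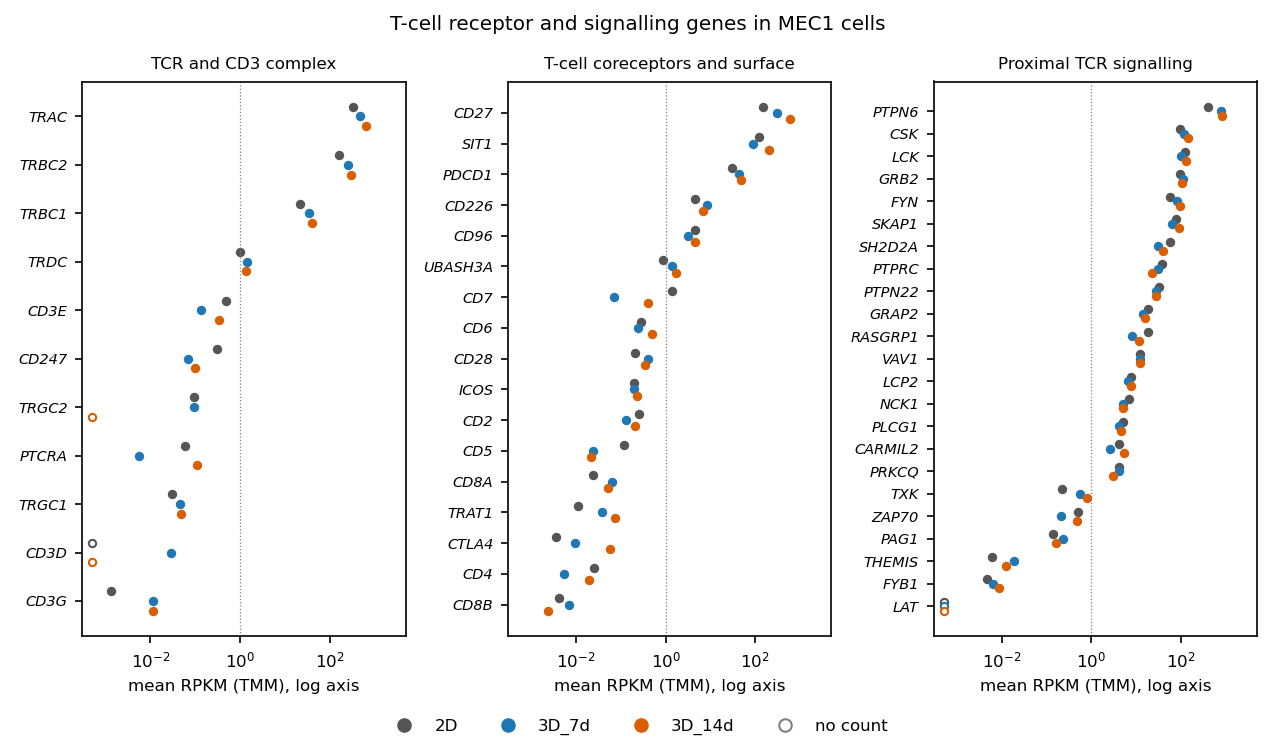
Mean RPKM of the genes of 3 T-cell lists, 1 signalling gene left out, in each group on a log axis, 3 samples per point, ordered within each list by the mean over the groups. The dotted line marks 1 RPKM and open points mark groups without a count. TRAC, TRBC1 and TRBC2 lie above 10 RPKM and the CD3 genes below 1 RPKM, while most signalling genes lie above 1 RPKM.

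Among surface genes, 3 of 9 retained rose and 2 fell at day 7, and 5 rose and 1 fell at day 14. The share called was 55.6% and 66.7%, beside 43.4% and 36.2% of all tested genes. CD27, a costimulatory receptor of T cells and memory B cells, had 200.5 CPM ± 19.1 (SD, n = 3) in 2D, 405 ± 35.3 in 3D_7d and 795 ± 164 in 3D_14d, and rose by 1.02 and 1.99 on the log2 scale (adjusted p = 0.000403 and 9.45e-06). CD27 shares 21.4% of its exonic bases with another gene. PDCD1, encoding the checkpoint receptor PD-1, rose by 0.55 (adjusted p = 0.01) and 0.70 (adjusted p = 0.00321). CD226, an activating receptor, rose by 0.91 (adjusted p = 0.00218) and 0.58 (adjusted p = 0.0294). SIT1, an adaptor that restrains receptor signalling, fell by 0.47 at day 7 (adjusted p = 0.04) and rose by 0.76 at day 14 (adjusted p = 0.00449).

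Of the 20 retained proximal signalling genes, 3 rose and 3 fell at day 7, and 4 rose and 4 fell at day 14. The share called was 30.0% and 40.0%, beside 43.4% and 36.2% of all tested genes. PTPN6, the phosphatase SHP-1, which dampens signalling of both antigen receptors, was at 1011 CPM ± 58.4 (SD, n = 3) in 2D, 1983 ± 92.6 in 3D_7d and 2104 ± 369 in 3D_14d, and rose by 0.97 (adjusted p = 0.000282) and 1.06 (adjusted p = 0.000234). CSK, the kinase that phosphorylates the inhibitory site of LCK, differed by 0.30 on the log2 scale at day 7 (not called, adjusted p = 0.181) and rose by 0.60 at day 14 (adjusted p = 0.0178), and the adaptor gene GRB2 was not called (0.26 and 0.16). SH2D2A, encoding an adaptor that binds LCK, fell by 0.86 (adjusted p = 0.000558) and 0.50 (adjusted p = 0.0174). SKAP1 fell by 0.35 at day 7 (adjusted p = 0.0458) and rose by 0.53 between time points (adjusted p = 0.0108). PTPRC, the phosphatase CD45, which acts on LCK, differed by -0.28 on the log2 scale at day 7 (not called, adjusted p = 0.367) and fell by 0.74 at day 14 (adjusted p = 0.0287). ZAP70, the kinase that binds the phosphorylated CD3 and zeta chains, was close to the filter, with 1.27 CPM ± 0.207 in 2D, 0.542 ± 0.628 in 3D_7d and 1.20 ± 0.609 in 3D_14d, and was not called in any comparison (adjusted p = 0.196, 0.936 and 0.266). ZAP70 was named after its values were seen, as a gene used to classify CLL.

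Among the 16 retained transcription factors, 3 rose and 1 fell at day 7 and at day 14. The share called was 25.0% at each time, beside 43.4% and 36.2% of all tested genes. TBX21, encoding T-bet, rose by 0.94 at day 14 (adjusted p = 0.002), with 0.26 at day 7 (adjusted p = 0.268). EOMES, its close relative, rose by 1.49 at day 7 (adjusted p = 8.1e-05) and fell by 1.33 between time points (adjusted p = 0.000553). MYB fell by 0.73 and 1.68 (adjusted p = 0.0018 and 1.4e-05). TCF7, encoding TCF-1, rose by 0.86 between time points (adjusted p = 0.0066), and its values against 2D of -0.44 and 0.42 were not called. TCF3 and RUNX3 were not called.

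The B-cell counterparts were also measured. Of the 14 genes, 3 rose and 2 fell at day 7, and 5 rose and 1 fell at day 14. The share called was 35.7% and 42.9%, beside 43.4% and 36.2% of all tested genes. In 2D, LCK was at 121 RPKM against 290 RPKM ± 5.25 for BLK, 56.7 RPKM ± 5.32 for FYN and 21.0 RPKM ± 4.76 for LYN, so that among these 4 Src-family kinases its level was second to that of BLK. LAT2, the B-cell and myeloid relative of LAT, was at 118 RPKM ± 2.91 in 2D and rose by 0.45 at day 7 (adjusted p = 0.0165) and by 0.48 at day 14 (adjusted p = 0.014). BLK rose by 0.76 at day 14 (adjusted p = 0.00223) and CD79A by 1.37 (adjusted p = 0.000101). Their day 7 values of 0.35 and 0.31 were not called (adjusted p = 0.0798 and 0.153). MS4A1, encoding CD20, rose by 0.86 at day 7 (adjusted p = 0.00069) and fell by 0.51 between time points (adjusted p = 0.0232). Its day 14 value of 0.35 was not called (adjusted p = 0.0859). CD22, an inhibitory coreceptor of B cells, fell by 1.12 at day 7 (adjusted p = 0.000736) and by 0.71 at day 14 (adjusted p = 0.014).

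Some markers of NK and myeloid cells differed between the groups as well. Of 9 NK genes, 4 were retained, with a summed CPM of all 9 of 58.7 to 68.9 in 2D, 30.8 to 42.2 in 3D_7d and 60.9 to 120 in 3D_14d, most of it from NCR3. NCR3 fell by 0.98 at day 7 (adjusted p = 0.00458) and rose by 1.38 between time points (adjusted p = 0.00145). Its day 14 value of 0.40 against 2D was not called (adjusted p = 0.184). KLRD1 rose by 2.04 at day 7 (adjusted p = 0.00114) and by 3.07 at day 14 (adjusted p = 0.000131). However, KLRD1 was below 1 CPM in all 2D samples and passed the filter only through the 3D samples. The defining marker NCR1 had at most 3 counts in any sample. NKG7 fell by 1.96 at day 7 (adjusted p = 0.0317), but was below 1 CPM in all 3D_7d samples (55, 5 and 12 counts). As for CD7, the 2D samples, in which it was high, carried NKG7 past the filter. Its place among the retained genes is thus no support for the difference. KLRF1 rose by 1.63 between time points (adjusted p = 0.0119). Of 8 myeloid genes, 2 were retained and 5 were below 1 CPM in every sample. The summed CPM of all 8 was 33.3 to 41.0 in 2D, 14.6 to 19.6 in 3D_7d and 71.8 to 144 in 3D_14d. Most of it came from TYROBP. TYROBP, encoding a signalling adaptor of NK and myeloid cells, fell by 1.25 at day 7 (adjusted p = 0.00239) and rose by 1.40 at day 14 (adjusted p = 0.00156), ITGAM rose by 2.44 between time points (adjusted p = 0.0119), and LYZ had at most 3 counts in any sample. The part of these markers in the differences of the members was not tested.

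The genes whose levels varied most like those of each member over the 9 samples were ranked by Pearson's r of log2 CPM, as a description in which all points share library and scaling. TRAC was most like RAB38 (r = 0.990), NAPSB (0.989) and NECAP2 (0.988). TRBC1 was most like ZMAT2 (0.994), TRBC2 (0.993, rank 2) and MTHFS (0.991), and TRBC2 was most like TRBC1, ZMAT2 (0.990) and ARPC2 (0.987). LCK had no neighbour as close, with ST3GAL1 (0.936), AC092868.1 (0.933) and ITGB2 (0.932). CD7 was most like GIMAP7 (0.992), ARL10 (0.988) and KIF21B (0.985). With total counts alone as the scaling, 9 of these 15 places were held by the genes named here.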

How the data were processed

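Per the labels, RNA of MEC1 cells was amplified by a SMART-Seq protocol for low input and sequenced as single reads of 100 bases. The submitters' processing notes name Trimmomatic 0.39, STAR 2.5.3a, featureCounts 1.6.4 and GRCh38. The paper's methods name GENCODE 31. The deposited values are raw counts per gene symbol, which the authors did not normalize. Strand setting and treatment of reads with several alignments or overlapping genes are not given in the sources used here.

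In R (version 4.3.3), edgeR (version 4.0.16) was used with TMM factors and the quasi-likelihood test on 3 groups of 3 samples, for genes above 1 CPM in 3 or more samples (13463 of 51726 genes with at least 1 count). SE is the absolute log2 fold change divided by the square root of F. The labels do not say whether replicates were separate cultures, so p-values measure the spread between these samples, which may be technical. Assigned reads per sample ranged from 54662799 to 85968686, and the spread between replicates was wider than counting error. TMM factors were 0.884 to 1.12. On simulated counts with 194 genes changed by a log2 fold change of 1 among 13160 tested, 58.8% were recovered in 3D_7d vs 2D, with 3.39% of calls false. In the data 43.4% of tested genes were called in this comparison, so the simulated recovery does not give the sensitivity of the real fit.

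Members and gene lists were chosen with earlier results of these data known. Besides the members, the genes named were the 3 most abundant and the smallest p per direction and contrast of each list, those at most 3 counts everywhere, the 3 leading segments per locus, FYN and LYN as relatives of LCK, TRBJ2-1, TRBJ2-2P and TRBJ2-4 (chosen after their values were seen), neighbours sharing exons, and the 3 most similar genes per member. Further exceptions are stated beside the value. Exon overlaps were taken from the exon coordinates of the deposited counts, and sequences were read from GRCh38 at these coordinates. GENCODE 44 was used only to compare the exons of the 77 TRA and TRB joining and constant genes, and all 77 were equal. Alternatives were DESeq2 (version 1.42.0) size factors or Wald test, total counts, TMM without immunoglobulin, ribosomal protein and mitochondrial genes, no filter or filterByExpr, a fit restricted to the 6 libraries compared, a block for the replicate number, and each sample left out. Of the gene lists, 1 signalling gene entered the counts and is not reported by name here.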

Additional observations from a re-analysis of the deposited data

Results flagged for a closer look

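The level in 3D differed between day 7 and day 14 for 2 members, by the direct test of the time points. No 2D samples of matching days were available, so a change with time in culture alone cannot be told apart. TRAC was higher at day 14 than at day 7 (log2 fold change 0.46, SE 0.146, adjusted p = 0.0339 by edgeR's quasi-likelihood test, 3D_14d higher in 3 of 3 samples), and the adjusted p ranged from 0.0058 to 0.277 over the alternatives. CD7 was higher at day 14 than at day 7 (log2 fold change 2.51, SE 0.578, adjusted p = 0.00759, higher in 3 of 3 samples), with an adjusted p of 0.000137 to 0.0353 over the alternatives.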

How the results depend on the processing

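The rises of TRAC, TRBC1 and TRBC2 at day 14 and the CD7 differences at day 7 and between time points kept their direction and their call in all 17 alternatives, with log2 fold changes of 0.755 to 1.10, 0.717 to 1.04, 0.692 to 1.06, -5.20 to -3.94 and 2.01 to 3.45. CD7 entered the main comparison through its high 2D samples, and without a filter on expression it was at -4.26 (adjusted p = 3e-12) and 2.46 (adjusted p = 0.000212). These values rest on the same few reads in 3D_7d and are no further support. With total counts alone, LCK was at -0.455 at day 7 (adjusted p = 0.0234) and reversed to -0.14 at day 14. Under that scaling, all tested genes had a median of -0.16 and -0.18 in these comparisons. Calls as higher made up 37.6% of all calls at day 7 (51.1% with TMM) and 33.1% at day 14 (52.5% with TMM). Without a filter on expression, TRAC lost its call at day 7 (0.504, adjusted p = 0.0884) and between time points (0.412, adjusted p = 0.277), and filterByExpr gave 0.446 (adjusted p = 0.0622) for the latter. In fits of only the 6 samples of a contrast, LCK passed at day 7 (-0.318), TRAC did not pass between time points (0.471) and 30 genes of the T-lineage lists were called at day 7 instead of 18. The cause of these changes was not tested. With 1 sample left out, which leaves fewer degrees of freedom, the log2 fold changes at day 7 were 0.422 to 0.530 for TRAC, 0.609 to 0.809 for TRBC1 and 0.542 to 0.722 for TRBC2, and 10 to 24 listed genes were called. At day 14 they were -0.11 to 0.207 for LCK and -2.25 to -1.44 for CD7, with 11 to 23 listed genes called. Between time points they were 0.394 to 0.590 for TRAC, -0.000375 to 0.306 for TRBC1 and 0.189 to 0.506 for LCK. LAT, without a count, gave no value under any alternative. With a replicate block, TRAC was at 0.511, 0.959 and 0.448 in the 3 comparisons and no call of a member changed, and 17, 19 and 12 listed genes were called. Deviations from the group means correlated by -0.1 to 0.185 between samples of the same replicate number, over 0.1 in 2 of 9 pairs. Between samples of other numbers they correlated by -0.135 to 0.081, over 0.1 in 0 of 18 pairs. Whether the replicate numbers mark pairs cannot be decided from these values.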
